A study of Mus musculus with 3 samples.

Results

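The level of cytosine modification was compared between the sense and the antisense strand of mouse gene bodies, where sense is the strand that reads like the transcript. A gene body ran from 2 kb after the annotated start to the end of an autosomal protein-coding gene of GENCODE M1 (genome build mm9), and it was kept when no gene of the other strand overlapped it. The rule kept 13687 of 21418 autosomal protein-coding genes. Of the others, 3138 were too short to have a body beyond 2 kb and 4593 were overlapped by a gene of the other strand. The bodies hold 4939218 of the 20364700 autosomal CpGs of the reference. Both cytosines were listed in all 3 libraries at 4655940 of them, and 4648986 of these were used after variant-like CpGs had been left out.

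A CpG reads the same on both strands, so each carries 1 cytosine on the sense strand and 1 on the antisense strand. After replication, Dnmt1 with its partner Uhrf1 copies 5-methylcytosine (5mC) onto the new strand, which keeps most CpGs alike on both strands. TET enzymes oxidize 5mC on single cytosines to 5-hydroxymethylcytosine (5hmC) and further to 5-formylcytosine (5fC) and 5-carboxylcytosine (5caC), so oxidized bases need not be equal on the strands. The antisense strand is the template of RNA polymerase, and introns are known to have a base composition that differs between the strands.

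The libraries were made from genomic DNA of E14 mouse embryonic stem cells (mESCs), 1 cell line grown with serum, LIF, PD0325901 and CHIR99021. They share cells and culture and differ in the chemistry applied. TAPSβ reads 5mC, CAPS reads 5hmC, and pyridine borane sequencing (PS) reads 5fC and 5caC, each as a cytosine sequenced as T. The study also selected shorter DNA fragments for CAPS than for the others. There was 1 library per method, so the strands were compared within a library and intervals cover counting error only. Median depth per cytosine was 13 reads (TAPSβ) or 9 reads (CAPS, PS), and in the bodies the strands were covered alike, at 13.2 sense and 13.1 antisense reads per CpG in TAPSβ, 9.86 and 9.90 in CAPS, and 10.2 in each strand in PS.

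The labelled cell type cannot be checked by expression here. The body of Pou5f1, a defining factor of pluripotency, had a TAPSβ level of 0.989% on the sense strand (8 of 809 reads) and 1.91% on the antisense strand (15 of 785 reads), and that of Nanog, another such factor, 19.7% and 18.1%. Over all genes of the core pluripotency list that were tested, the pooled levels were 35.1% and 35.5%, below those over all bodies given further on, but single members such as Rif1 (62.1% and 60.8%) and Dppa4 (58.7% and 61.7%) were near them. The bodies of Pou5f1 and Nanog belong to genes under 10 kb, a class with a lower level as a whole (47.7% and 47.6%).

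Before the values, the windows below show what is compared. They are from the gene bodies called in TAPSβ by both tests given further on, the 3 in each direction with the smallest p of the test within CpGs, plus Sipa1l1, the gene which that test called in CAPS. These windows were chosen after the values had been seen. Each is centred on the CpG with the smallest Fisher p between its strands in that library, among windows outside annotated untranslated regions. It is printed 5′ to 3′ along the sense strand from the mm9 reference, with that CpG in capitals. These p are unadjusted and the smallest of many. By Fisher's exact test they were 0.0066 of 184 CpGs in Srd5a3, 0.029 of 117 in Ccdc64b and 0.019 of 32 in Krtcap2. They were 6.0e-09 of 67 in Itln1, 1.3e-14 of 17 in Gm16440, 0.0022 of 96 in Fastkd3 and 0.012 of 2683 in Sipa1l1.
Srd5a3, intron, chr5:76572048-76572149, plus strand: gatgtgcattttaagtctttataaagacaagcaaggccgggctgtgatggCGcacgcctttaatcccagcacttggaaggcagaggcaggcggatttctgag
Ccdc64b, intron, chr17:23803594-23803695, plus strand: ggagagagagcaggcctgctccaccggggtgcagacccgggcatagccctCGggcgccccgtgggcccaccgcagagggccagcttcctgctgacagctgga
Krtcap2, intron, chr3:89052544-89052645, plus strand: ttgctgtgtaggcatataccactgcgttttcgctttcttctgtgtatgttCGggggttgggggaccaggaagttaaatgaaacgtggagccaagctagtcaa
Itln1, intron, chr1:173457962-173458063, minus strand: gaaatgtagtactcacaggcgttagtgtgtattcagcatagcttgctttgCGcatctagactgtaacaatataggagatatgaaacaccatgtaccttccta
Gm16440, coding exon, chr14:7219923-7220024, minus strand: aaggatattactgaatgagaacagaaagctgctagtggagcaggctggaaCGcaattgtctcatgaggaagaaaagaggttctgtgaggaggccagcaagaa
Fastkd3, coding exon, chr13:68723471-68723572, plus strand: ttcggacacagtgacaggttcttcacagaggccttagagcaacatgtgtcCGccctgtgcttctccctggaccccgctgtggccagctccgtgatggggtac
Sipa1l1, intron, chr12:83303357-83303458, plus strand: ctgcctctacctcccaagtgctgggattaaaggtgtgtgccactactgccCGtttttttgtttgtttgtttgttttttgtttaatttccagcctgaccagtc
In the Srd5a3 window, 12 of 14 sense reads and 2 of 9 antisense reads were modified in TAPSβ. The Krtcap2 CpG had 12 of 13 sense reads and 4 of 10 antisense reads modified, and the Ccdc64b CpG 9 of 9 and 4 of 8. At the Fastkd3 CpG the order was the opposite, with 2 of 13 sense reads against 7 of 8 antisense reads. The remaining TAPSβ windows lie in genes that may share reads with near-identical copies, which was not tested. None of the windows, those above included, was checked for repeated sequence. The Itln1 CpG had 24 of 26 sense reads but 37 of 119 antisense reads modified, although its body as a whole was higher on the antisense strand. The Gm16440 CpG had 0 of 33 sense reads, which allows a level of up to 9.09%, and 78 of 110 antisense reads modified. At the Sipa1l1 CpG, 0 of 17 sense reads, which allows up to 17.6%, and 4 of 10 antisense reads were modified in CAPS.

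For 5mC, the sense strand was slightly higher. The TAPSβ level was 61.70% on the sense strand (37813517 of 61286298 reads) and 61.53% on the antisense strand (37553566 of 61036205 reads), a difference of 0.173 percentage points (95% interval 0.156 to 0.190). TAPSβ levels here are raw and not corrected for incomplete conversion of 5mC, for converted 5hmC or for false positives. The false-positive rate that the study gives for TAPSβ on an unmodified spike-in is larger than this strand difference. The ratio of sense to antisense level was 1.0028 (1.0025 to 1.0031). It was above 1 on 19 of 19 autosomes, from 1.0007 on chromosome 2 to 1.0047 on chromosome 11, with a mean of 1.0028 ± 0.0012 (SD over autosomes, which are parts of 1 library and not replicates). The interval lay above 1 on 18 of them. Plus-strand genes (1.0032) and minus-strand genes (1.0024) gave the same direction, while the plus strand over the minus strand of the reference at all autosomal CpGs gave 1.0005 (1.0004 to 1.0007).

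For 5hmC, the direction was the opposite. The CAPS level was 3.625% on the sense strand (1662085 of 45847526 reads) and 3.667% on the antisense strand (1687553 of 46021774 reads), a ratio of 0.989 (0.987 to 0.991). CAPS levels here are raw and not corrected for incomplete conversion of 5hmC or for false positives. The false-positive rate that the study gives for CAPS on an unmodified spike-in is larger than this strand difference. The antisense level was higher on 19 of 19 autosomes, with ratios from 0.982 on chromosome 12 to 0.9998 on chromosome 19, and the interval lay below 1 on 14. Plus-strand and minus-strand genes both gave 0.989, and plus over minus at all autosomal CpGs gave 1.0002 (0.999 to 1.001). So the difference followed the direction of the genes and not the strand of the reference.

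For 5fC and 5caC, levels were near the bottom of the range. The PS level was 0.1687% on the sense strand and 0.1704% on the antisense strand, a ratio of 0.990 (0.980 to 0.9998). Both levels are below the false-positive rate that the study gives for an unmodified spike-in in PS, so modified bases cannot be told apart from background in these pooled values. It was below 1 on 13 of 19 autosomes, and the interval excluded 1 on 2 of them. The upper bound reached or passed 1 under 7 of 12 alternatives.

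**Figure D1:**
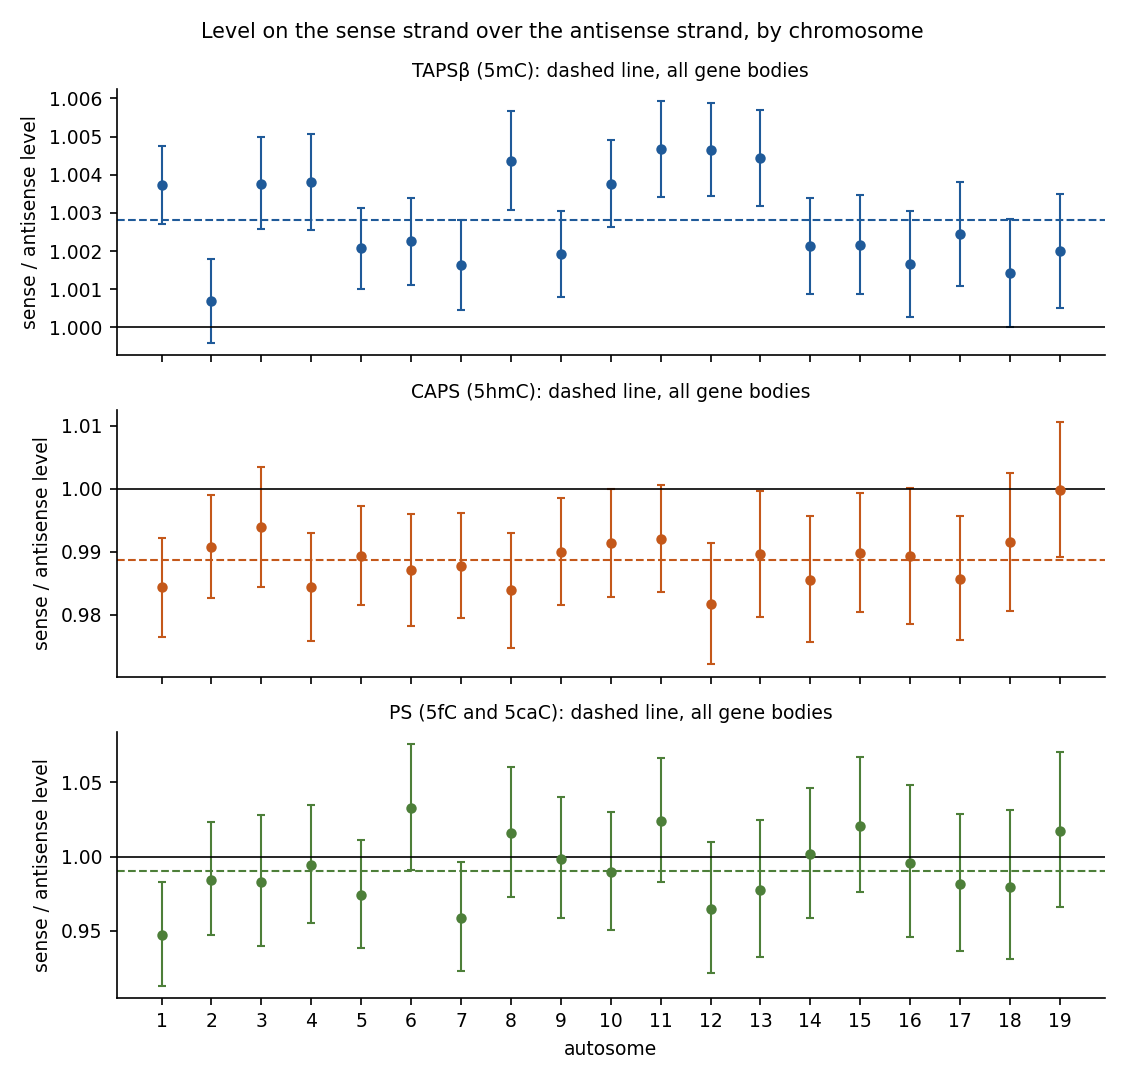
Level on the sense strand over the level on the antisense strand (vertical axis) for gene bodies of each autosome (horizontal axis), 1 panel per library, with 95% intervals for counting error, the line of equality at 1 and the ratio over all bodies dashed. All 19 TAPSβ ratios are above 1 and all 19 CAPS ratios are below 1, while PS ratios fall on both sides.

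The sequence around the CpG differed between the strands, and the CAPS level differed with it. Over both strands of the bodies, the CAPS level was 4.54% where the base before the cytosine was A, 4.27% for C, 2.80% for G and 2.62% for T. A stood before the cytosine in 26.9% of sense reads and 30.6% of antisense reads. T stood there in 24.6% and 22.9%, C in 26.9% and 25.9%, and G in 21.6% and 20.5%. So the antisense strand held more of the base with the highest CAPS level and less of each of the others, C with its high level included. At a given base the sense and antisense cytosines lie in part at different CpGs, so these values do not compare the strands within CpGs. With A before the cytosine the strands had 4.52% (sense) and 4.55% (antisense), and with G before it 2.80% on each. With C before it the sense level was the higher, at 4.30% against 4.25%, a ratio of 1.013 (1.009 to 1.017), opposite to the pooled difference. With T before it the ratio was 1.005 (1.0003 to 1.011). Divided by the base after the CpG, all 4 ratios were below 1, from 0.981 for C to 0.993 for A, and their intervals excluded 1. Of the 16 contexts of 1 base on each side, TCGC had the lowest CAPS level (2.33%) and ACGG the highest (5.01%).

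CpGs whose flanks are their own complement (A before and T after, C and G, G and C, or T and A) present the same 4 bases on both strands. At these positions the CAPS ratio was 1.003 (0.999 to 1.007), so the lower sense level was not seen there. When every strand was given the same mix of contexts, taken as 2 bases on each side of the CpG, the ratio over all bodies was 0.9993 (0.997 to 1.001). The mix of contexts alone, taken with the CAPS level of each context at CpGs outside all genes, gave a ratio of 0.991.

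Relative to their size, though not in percentage points, TAPSβ levels varied less with the context than CAPS levels, from 57.5% at CCGG to 66.5% at GCGT. With self-complementary flanks the TAPSβ ratio was 1.0020 (1.0014 to 1.0026), and with equal contexts 1.0018 (1.0016 to 1.0021). The mix of contexts alone gave 1.0007. By the base before the cytosine the ratio ran from 0.998 (0.997 to 0.999) for A to 1.006 (1.006 to 1.007) for T. Here too, sense and antisense cytosines lie in part at different CpGs.

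**Figure D2:**
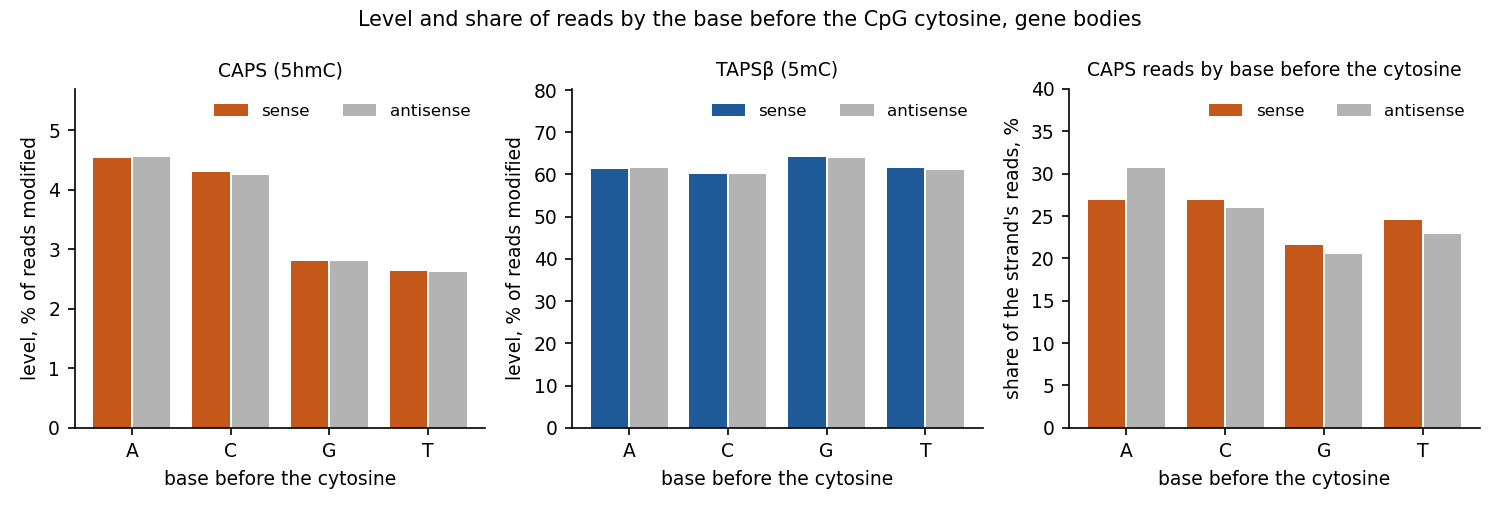
CAPS and TAPSβ levels in percent of reads modified (left and middle) and the share of CAPS reads (right) by the base before the CpG cytosine, for the sense strand (coloured bars) and the antisense strand (grey bars). CAPS levels fall from 4.54% after A to 2.62% after T, and the strands lie closer to each other than A and C do to G and T, while A precedes the cytosine in 26.9% of sense and 30.6% of antisense reads.

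Position in the gene separated the CpGs further. In introns the CAPS ratio was 0.986 (0.984 to 0.989), in coding exons 0.998 (0.991 to 1.004) and in other exon sequence 1.004 (0.995 to 1.012). The ratio in introns divided by that in coding exons was 0.988 (0.982 to 0.995). In introns A preceded the cytosine in 27.3% of sense and 31.9% of antisense reads, and in coding exons in 24.6% and 20.1%, so the direction of the base difference was turned. With equal contexts the intron ratio was 0.9997 (0.997 to 1.002), whereas coding exons went to 0.986 (0.980 to 0.993) and other exons to 1.014 (1.005 to 1.023). The intron ratio over the coding exon ratio was then 1.014 (1.007 to 1.021), on the other side of 1. Within CpGs, by the Mantel-Haenszel estimate, the CAPS ratio was 0.987 (0.985 to 0.990) in introns and 0.996 (0.989 to 1.002) in coding exons. In other exons it was 0.998 (0.989 to 1.007), so both exon intervals included 1.

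TAPSβ ratios were 1.0031 (1.0028 to 1.0034) in introns, 1.0003 (0.9992 to 1.0013) in coding exons and 1.0041 (1.0028 to 1.0054) in other exons. With equal contexts they were 1.0018, 1.0029 and 1.0030, and all their intervals lay above 1. Within CpGs they were 1.00255 (1.00228 to 1.00282), 1.00038 (0.99951 to 1.00125) and 1.00281 (1.00167 to 1.00395). The coding exon interval then included 1.

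Outside genes the strands were alike. In gene-free sequence 2 to 10 kb before the starts (590593 CpGs), the CAPS ratio was 0.9998 (0.994 to 1.006) and the TAPSβ ratio 1.0002 (0.9993 to 1.0011). In gene-free sequence 2 to 10 kb after the ends (590945 CpGs), they were 0.998 (0.992 to 1.004) and 1.0007 (0.9998 to 1.0016). A preceded the cytosine in 27.5% of sense and 27.4% of antisense CAPS reads before the starts, and in 26.9% and 27.5% after the ends.

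**Figure D3:**
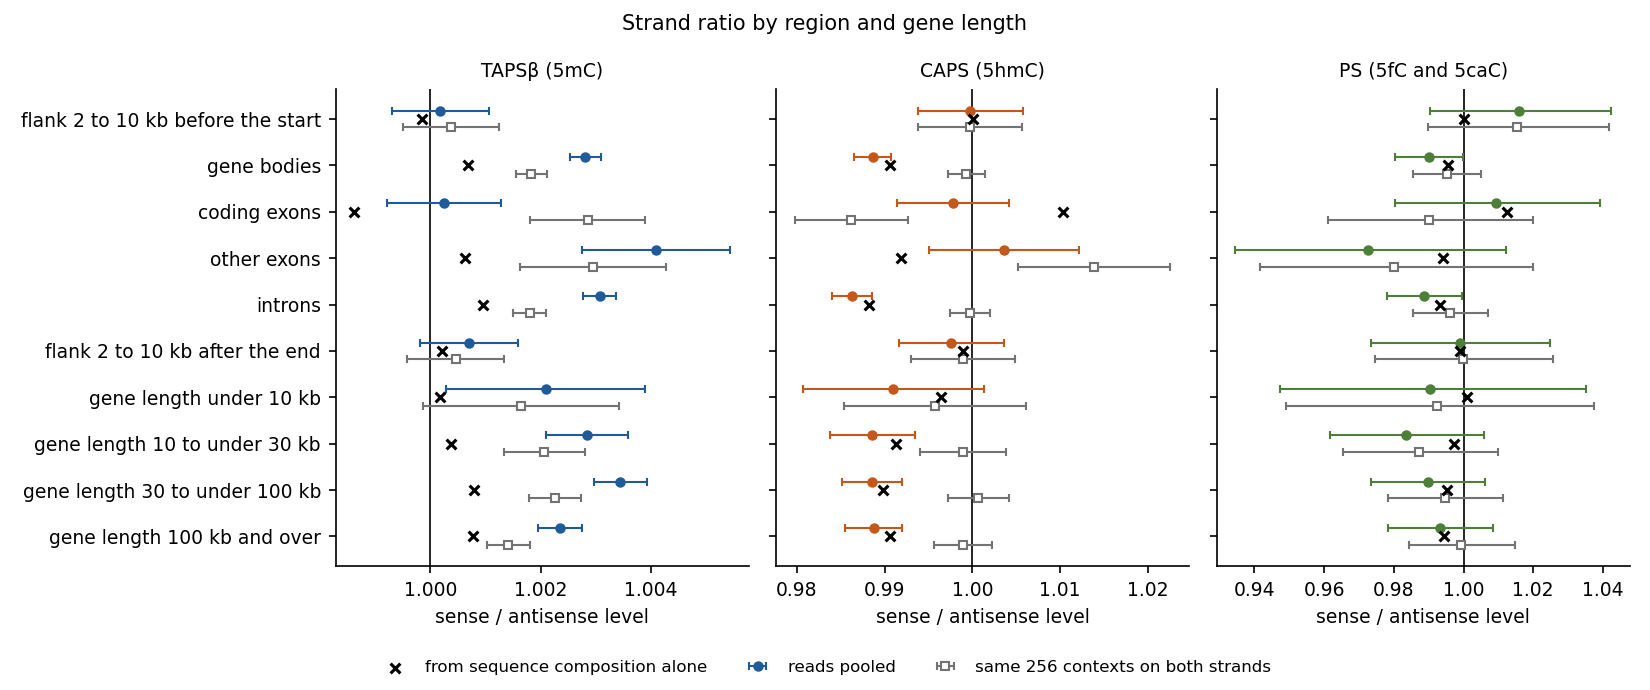
Sense over antisense level (horizontal axis, with its own scale in each panel) by region and gene length, for pooled reads (filled circles), with the same mix of contexts on both strands (open squares) and as given by the mix of contexts alone (crosses); bars are 95% intervals for counting error. In CAPS the squares of all gene bodies, introns and the 4 length classes lie at 1 within their intervals, coding exons lie below 1 and other exons above, and in TAPSβ the squares of gene bodies, exons and introns stay above 1.

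No difference of the CAPS ratio with gene length was detectable. It was 0.991 (0.981 to 1.001) in genes under 10 kb, 0.989 from 10 to under 30 kb, 0.989 from 30 to under 100 kb and 0.989 (0.985 to 0.992) from 100 kb. The ratio in the longest class divided by that in the shortest was 0.998 (0.987 to 1.009) in CAPS, 1.0003 (0.998 to 1.002) in TAPSβ and 1.003 (0.957 to 1.051) in PS. The shortest class had 194124 CpGs and the widest interval. By class, the TAPSβ ratios were 1.0021 (1.0003 to 1.0039), 1.0028 (1.0021 to 1.0036), 1.0034 (1.0030 to 1.0039) and 1.0024 (1.0020 to 1.0028) from the shortest to the longest class, and the last intervals in this order, from 30 kb and from 100 kb, did not overlap. With equal contexts they were nearly as far apart, at 1.0023 (1.0018 to 1.0027) and 1.0014 (1.0010 to 1.0018), with intervals that just touched. Within CpGs, by the Mantel-Haenszel estimate, they were closer, at 1.0026 (1.0021 to 1.0030) and 1.0022 (1.0019 to 1.0026), and the intervals overlapped. In genes under 10 kb the TAPSβ ratio was 1.0016 (0.9999 to 1.0034) with equal contexts and 1.0003 (0.9988 to 1.0017) within CpGs. Both of these intervals included 1, and the one within CpGs lay below that of the longest class. From the shortest to the longest class, the share of tested bodies with the higher TAPSβ level on the sense strand was 49.9%, 53.2%, 55.9% and 56.2%. The median number of reads per tested body rose from 1354 in the shortest to 35046 in the longest class. Counting error was thus larger in short bodies, and its part in the shares was not tested. With self-complementary flanks alone the CAPS value was 1.028 (1.006 to 1.050), the only one of 10 alternatives with an interval that excluded 1.

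Along the bodies the CAPS ratio was 0.991 (0.984 to 0.998) at 2 to 5 kb from the start, 0.985 at 5 to 10 kb, 0.984 (0.979 to 0.989) at 10 to 20 kb, 0.989 at 20 to 50 kb, 0.991 at 50 to 100 kb and at 100 to 200 kb, and 0.994 (0.987 to 1.001) beyond 200 kb. It was under 1 at every distance, and only the last interval included 1. TAPSβ ratios ran from 1.0024 to 1.0034 with every interval above 1, and no trend with distance was larger than the intervals.

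**Figure D4:**
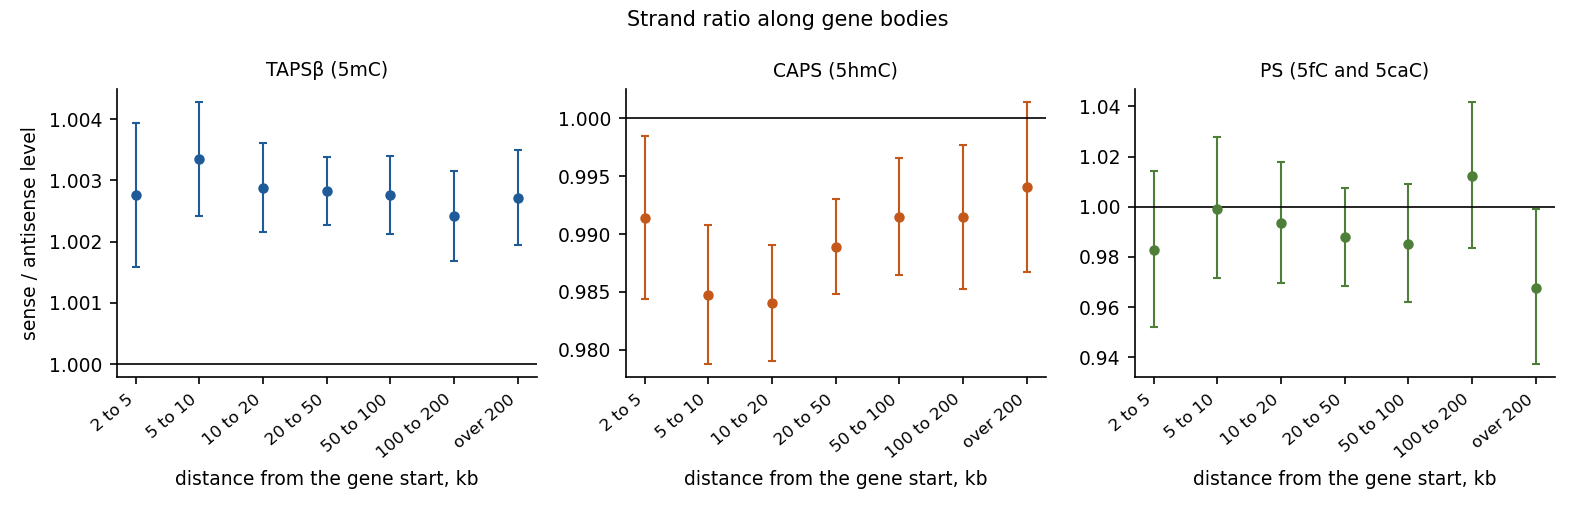
Sense over antisense level (vertical axis, with its own scale in each panel) by distance of the CpG from the gene start in kb (horizontal axis), with 95% intervals for counting error. TAPSβ stays between 1.0024 and 1.0034 at all distances, CAPS between 0.984 and 0.994, and PS intervals nearly all include 1.

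Genes of low and of high level showed both differences. With genes divided into quartiles of their own level on both strands, the TAPSβ difference was 0.187, 0.195, 0.173 and 0.154 points from the lowest to the highest quartile. As ratios these were 1.0044, 1.0032, 1.0026 and 1.0022, and the first interval (1.00346 to 1.00535) lay above the last (1.0017 to 1.00262). The CAPS ratio was 0.991, 0.989, 0.988 and 0.990, and every interval lay below 1. In points the CAPS difference was -0.0203, -0.0352, -0.0488 and -0.0512 in the same order.

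Single genes were tested where both strands had at least 200 reads. In TAPSβ, 12246 of 13687 bodies could be tested, and the sense level was higher in 6537 of them (53.4%). Fisher's exact test on the pooled reads, with Benjamini-Hochberg adjustment over all tested bodies, called 420 bodies higher on the sense strand (3.43%) and 288 higher on the antisense strand (2.35%) at an adjusted p under 0.05. The Cochran-Mantel-Haenszel test, which compares the strands within each CpG, called 95 (0.776%) and 64 (0.523%), and 109 bodies were called by both. At an unadjusted p under 0.05 there were 2482 bodies (20.3%) by Fisher's exact test and 1920 (15.7%) by the Cochran-Mantel-Haenszel test. Only 3 of the 708 Fisher calls were kept when CpGs lay at least 500 bp apart, where 8768 bodies could be tested, each with fewer reads, and 1 sense and 4 antisense calls were made. With self-complementary flanks there were 22 sense and 28 antisense calls. The larger number of sense calls was not seen in either setting, but calls there were few and no test compared the splits.

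Some of the bodies with the smallest Fisher p had CpGs of low level covered unequally on the strands. D2hgdh, a mitochondrial dehydrogenase of D-2-hydroxyglutarate, had 58.9% on the sense strand (841 of 1429 reads) and 43.0% on the antisense strand (836 of 1945 reads), a ratio of 1.37 (Fisher's exact test, adjusted p = 3.29e-16). Its 37 CpGs with a level under 20% held 245 sense and 720 antisense reads, and its 106 other CpGs held 1184 and 1225. Within CpGs the ratio was 1.10, and unlike Fisher's exact test the Cochran-Mantel-Haenszel test just missed the threshold (adjusted p = 0.0503). Mrps24, a protein of the small mitochondrial ribosome subunit, was 14.9% on the sense and 24.3% on the antisense strand, with 2743 sense and 1768 antisense reads at CpGs under 20%, and its ratio went from 0.612 to 0.914 within CpGs.

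Scg5, a chaperone of a prohormone convertase, was 68.7% sense (4270 of 6218 reads) and 75.8% antisense (6775 of 8936 reads). This was the smallest Fisher p of all, and only 12 of its 565 CpGs had a level under 20%, with 171 sense and 158 antisense reads. At its other CpGs the levels were 70.3% and 77.0%. Its ratio was 0.906 from pooled reads and 0.986 within CpGs. It had 11.01 sense and 15.8 antisense reads per CpG in TAPSβ, but 9.19 and 8.95 in CAPS. Grin2d, an NMDA receptor subunit, Tpst1, a tyrosylprotein sulfotransferase, and Pgbd5, a gene derived from a piggyBac transposase, had pooled ratios of 0.848, 0.918 and 0.928. Within CpGs they had 1.008, 1.0001 and 0.995. Atn1, Epn3 (an endocytic adaptor) and Yipf7 went from 1.28, 1.34 and 1.56 to 1.02, 1.03 and 1.05. Pnpla8, a phospholipase, and Zap70, a kinase of the T cell receptor, went from 1.09 and 0.841 to 1.02 and 0.946. Over whole bodies the median absolute log2 ratio of sense to antisense reads was 0.0666 in the 599 bodies called by Fisher's exact test alone, 0.0653 in the 109 called by both tests, 0.0544 in the 50 called by the Cochran-Mantel-Haenszel test alone and 0.0538 in the 11488 called by neither. So the imbalance of reads was larger in bodies that Fisher's exact test called, and its part in the calls was not tested.

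A part of the Fisher calls was also seen within CpGs. Zfp513, a zinc finger gene, had 59.6% sense (218 of 366 reads) and 33.2% antisense (91 of 274 reads) (Fisher's exact test, adjusted p = 3.83e-08), and its ratio within CpGs was 1.45. Park7, which encodes the oxidative stress protein DJ-1, had a ratio within CpGs of 1.10, and Ecel1, a membrane metallopeptidase, 1.11, and the Cochran-Mantel-Haenszel test called all 3. Ecel1 was called by Fisher's exact test and, narrowly, within CpGs (adjusted p = 0.046).

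Ranked by the test within CpGs, Srd5a3, the polyprenol reductase of dolichol synthesis, came first with 69.2% sense (1540 of 2227 reads) and 62.1% antisense (1261 of 2031 reads), a ratio of 1.12 within CpGs (by Fisher's exact test on pooled reads, adjusted p = 0.00025). Krtcap2, a subunit of the oligosaccharyltransferase complex, had 68.7% and 54.3%, and Chgb, the granule protein chromogranin B, 71.6% and 65.2%. Pon3, a lactonase of the paraoxonase family, had 77.5% and 73.8%, and Whrn, the scaffold protein whirlin, 50.5% and 48.7%. A pair of long genes were in this set with small differences, Tln2 (the adaptor talin 2, 342617 bp) at 70.8% and 69.3%, and 9130011E15Rik at 67.3% and 65.4%. On the antisense side, Fastkd3, a mitochondrial RNA factor, had 53.9% and 61.2%, Bmp1, the procollagen C-proteinase, 63.0% and 66.6%, and Cwh43 60.4% and 63.4%. Whrn, Zc3h10 and Krt86 were called within CpGs (ratios 1.05, 0.790 and 0.845) but not by Fisher's exact test on pooled reads (adjusted p = 0.085, 0.054 and 0.32).

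Among the 8 antisense calls with the smallest p within CpGs, Itln1, Gm16440 and Gm3752 may share reads with near-identical copies, and their values are uncertain. Itln1, an intelectin, was covered by 32.1 sense and 31.7 antisense reads per CpG. Its PS level was 3.21% (50 of 1559 reads) sense and 6.55% (97 of 1481 reads) antisense, against 0.1687% and 0.1704% over all bodies, although variant-like CpGs had been left out. Gm16440 rested on 17 CpGs with 15.4 sense and 28.9 antisense reads per CpG. Gm3164, listed under 2 gene identifiers among the Fisher calls, had ratios of 0.999 and 0.983 within CpGs. The shorter of these bodies lies inside the longer, so the 2 calls share CpGs and reads.

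**Figure D5:**
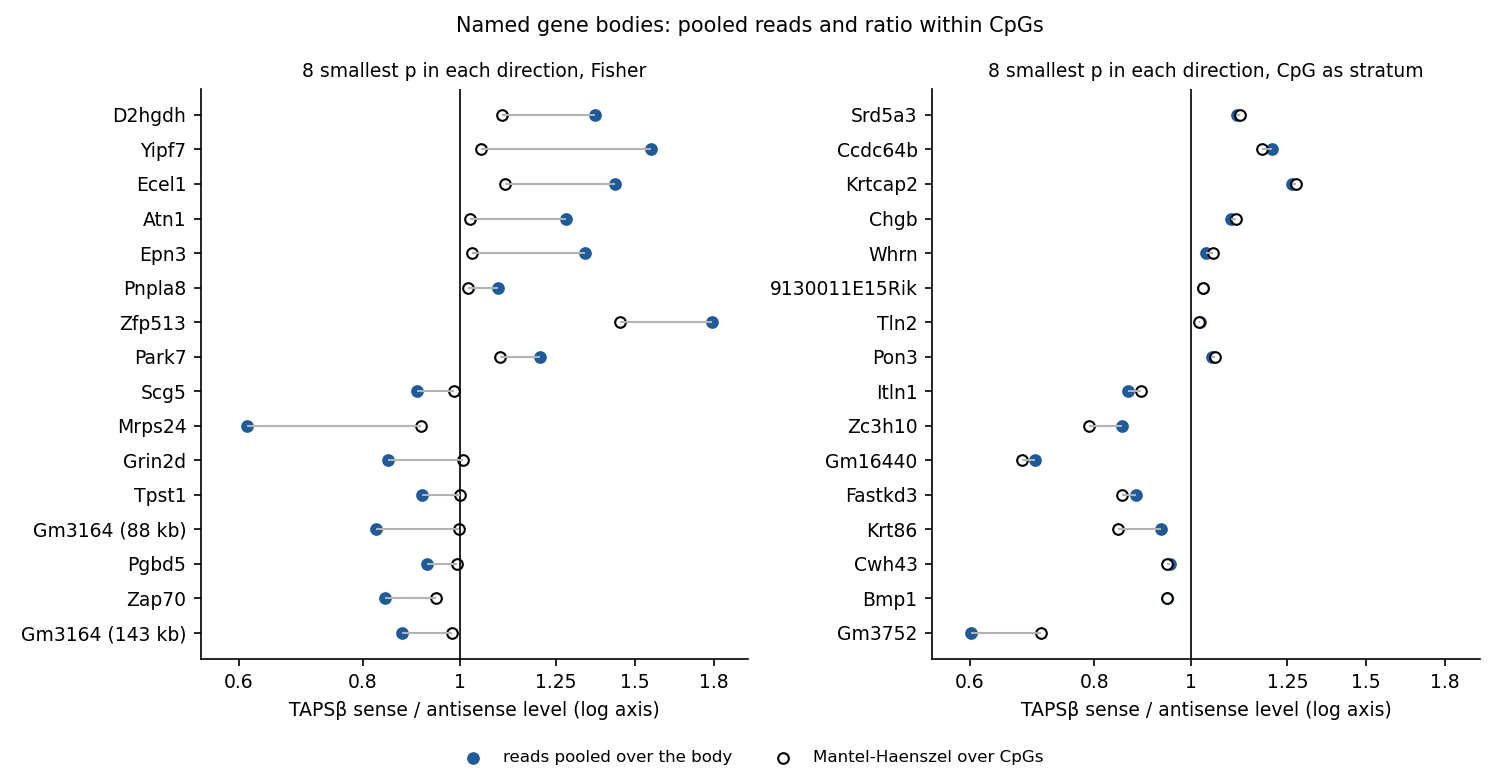
TAPSβ sense over antisense level (horizontal log axis) of the 16 gene bodies with the smallest Fisher p (left) and the 16 with the smallest Cochran-Mantel-Haenszel p (right), 8 in each direction, from reads pooled over the body (filled) and within CpGs by the Mantel-Haenszel estimate (open). On the left all open circles but that of Zfp513 (1.45) lie between 0.914 and 1.11, and on the right both circles of each body lie on the same side of 1, furthest apart for Gm3752 (0.602 pooled, 0.706 within CpGs) and Krt86 (0.933 and 0.845).

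In CAPS, 11924 bodies could be tested, and the antisense level was higher in 6369 of them and the sense level in 5553 (46.6%). Fisher's exact test called 0 bodies in either direction (0%), with 904 at an unadjusted p under 0.05. The test within CpGs called 0 higher on the sense strand (0%) and 1 on the antisense strand (0.00839%). This was Sipa1l1, a Rap GTPase-activating protein, with 4.30% sense (1136 of 26405 reads) and 5.12% antisense (1347 of 26285 reads), a ratio of 0.832 within CpGs (by Fisher's exact test on pooled reads, adjusted p = 0.057). Its TAPSβ levels were 65.2% and 64.3%. The counting error of a body's log2 ratio had a root mean square of 0.36 in CAPS, where levels were low, and 0.07 in TAPSβ. Each body's log2 ratio was also set against the weighted mean ratio over bodies. Their distance, divided by the body's counting error and squared, averaged 1.253 in CAPS and 2.49 in TAPSβ.

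In PS, 11933 bodies could be tested. Fisher's exact test called 0 with higher sense level (0%) and 1 with higher antisense level (0.00838%), with 285 at an unadjusted p under 0.05, and the test within CpGs called 2 in each direction (0.0168% each). The shared call was 4930467E23Rik, with 12 of 2515 sense and 46 of 2404 antisense reads modified (Fisher's exact test, adjusted p = 0.025). It had 32.7 sense and 31.2 antisense reads per CpG, compared with 10.2 over all bodies, and the call was lost when CpGs of high coverage were left out (0 bodies called), with self-complementary flanks (1 other body called) and with CpGs 500 bp apart (2 other bodies called). The others called within CpGs were Gm13152 and Gm5662 (sense) and Itln1 (antisense).

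The longest genes included Nrxn3, Pde4d, Gpc5 and Cntn5, and none of these 4 was called in any library by either test. Nrxn3, a synaptic adhesion gene of 1612056 bp, had TAPSβ levels of 65.8% sense and 65.4% antisense and CAPS levels of 1.97% (1524 of 77531 reads) and 2.07% (1629 of 78879 reads). Pde4d, a cyclic AMP phosphodiesterase, had CAPS levels of 3.09% and 3.16%. Cntn5, a neural adhesion gene, had the opposite order in CAPS, with 2.26% sense against 2.08% antisense. So among these bodies the CAPS order was mixed, and the differences were not called.

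The 5 gene lists were counted against all tested bodies, of which 46.6% had the higher level on the sense strand in CAPS and 53.4% in TAPSβ. In the list of methylation and demethylation enzymes, 14 of 18 genes were members and were tested, and 8 of 14 had the higher CAPS level on the sense strand, with a median log2 ratio of 0.04, compared with a median of -0.02 over all bodies. Tet1, a TET oxidase abundant in embryonic stem cells, had CAPS levels of 5.59% sense (592 of 10596 reads) and 4.78% antisense (534 of 11174 reads), not called (Fisher's exact test, adjusted p = 0.44). Dnmt1, the maintenance methyltransferase, had 5.24% and 4.99%, and Uhrf1 6.70% and 6.26%. In TAPSβ 1 of the 14 was called, Neil2, a DNA glycosylase, with 68.2% sense and 61.9% antisense (Fisher's exact test, adjusted p = 0.035), and it was not called within CpGs (adjusted p = 0.12). Over all tested bodies Fisher's exact test called 5.78% in TAPSβ, so 1 of 14 is near the background.

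In the list of general transcription and chromatin genes, 19 of 33 were members, and the CAPS level was higher on the antisense strand in 14 of 19. The median log2 ratio was -0.12. Polr2a, the largest subunit of RNA polymerase II, had 4.94% sense (116 of 2347 reads) and 6.94% antisense (154 of 2220 reads), and Chd7, a chromatin remodeller, 4.05% (888 of 21921 reads) and 4.81% (1086 of 22582 reads). Setd2, a histone H3 methyltransferase, had 3.58% and 4.56%. None was called (Fisher's exact test, adjusted p = 0.39, 0.21 and 0.39), so the list is described by its counts alone. Chd4 was called in TAPSβ, with 60.9% sense and 58.2% antisense (Fisher's exact test, adjusted p = 0.040), but not within CpGs (adjusted p = 0.21).

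In the core pluripotency list, 24 of 28 genes were members, and 12 of 21 tested in CAPS had the higher level on the sense strand (median log2 ratio 0.02). Esrrb, an orphan nuclear receptor of naive cells, had CAPS levels of 4.80% and 4.71%. Mycn, the transcription factor N-Myc, had 27 of 1076 sense and 6 of 1052 antisense reads modified in CAPS, not called (Fisher's exact test, adjusted p = 0.21). Of the long neuronal genes, 4 of 9 tested had the higher CAPS level on the sense strand, and of the muscle, liver and cilium genes 2 of 6. In TAPSβ all 6 of the latter had the higher antisense level, as did 5707 of the 12246 tested bodies. The largest difference was in Myh6, a cardiac myosin heavy chain, with 60.1% sense and 63.7% antisense, which Fisher's exact test called (adjusted p = 0.022) and the test within CpGs did not (adjusted p = 0.091).

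Single cytosines gave the same order in CAPS. In the bodies, cytosines with at least 5 reads were called in 1.99% of cases on the sense strand (87190 of 4384576) and 2.05% on the antisense strand (89699 of 4386145) (one-sided exact binomial test per cytosine, adjusted p under 0.05). Over all cytosines of the CAPS library with at least 5 reads, variant-like ones included, 1.64% were called. The ratio of the shares was 0.972 (0.963 to 0.981). With self-complementary flanks it was 1.005 (0.987 to 1.024), so here too the difference was not seen at equal flanks. Of CpGs tested on both strands, 75057 were called on the sense strand alone, 77342 on the antisense strand alone and 7084 on both. At a median of 9 reads per cytosine a modified cytosine can go uncalled. A call on 1 strand alone therefore does not show that the other strand was unmodified. Variant-like cytosines were 0.0786% of sense and 0.0795% of antisense cytosines (ratio 0.989, 0.944 to 1.036).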

How the data were processed

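Genomic DNA of E14 mESCs was sequenced after TAPSβ, CAPS or PS, 1 library each. The authors trimmed reads with Trim Galore 0.3.1, mapped them with BWA 0.7.12 to mm9 with spike-ins, removed duplicates with Picard 2.3.0, excluded reads that mapped with low quality, and called modified bases with asTair. They deposited, for each CpG cytosine, raw counts: reads with the cytosine modified and reads with it unmodified. The deposited fraction is modified reads over all reads and was used only to check the counts. Whether artifact-prone regions and known E14 variants had been taken out before deposit is not given in the sources used here.

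CpGs were kept when listed on both strands in all 3 libraries. Variant-like CpGs, where either strand reached 20% in PS over at least 5 reads, were left out, a filter that also acts on PS levels. For pooled values a CpG in several bodies was counted once, in the longest. Gene tests used every CpG of each body, so overlapping bodies share reads and their calls are not independent. Levels are modified over all reads; ratios carry 95% intervals on the log scale, and zero counts an upper limit of 3 counts. Neighbouring CpGs share reads, which the intervals and gene tests leave out. The squared distance of a body's log2 ratio from the weighted mean ratio, over its counting variance, averaged 2.49 in TAPSβ and 1.253 in CAPS. Counting error alone would give about 1, and the cause of the excess was not tested. In PS the average was 0.800, but 2504 of 11933 tested bodies had no modified read on a strand and were left out. The PS value therefore cannot be read against 1. Gene tests were Fisher's exact test and the Cochran-Mantel-Haenszel test (Python 3.11.15, scipy 1.17.1), two-sided, with Benjamini-Hochberg adjustment. Fisher's exact test was also run on simulated reads, drawn independently with 1 level per strand of a body. That run holds neither reads shared by CpGs nor CpGs of unequal level, so it cannot speak to their effect on the calls. Cytosines were called in CAPS by an exact binomial test against the false-positive rate of the study's unmodified spike-in. Text names the 8 bodies with the smallest p per direction, selected list members and the 5 longest, of which 1 is not reported here. The ranking by the test within CpGs, the sequence windows, the counts at CpGs under 20% and the ratio from the mix of contexts were added after seeing the values. The members, lists and tests were chosen with earlier results of these data known.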

Additional observations from a re-analysis of the deposited data

How the results depend on the processing

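The pooled TAPSβ ratio stayed above 1 with its interval under all 12 alternatives, from 1.0018 to 1.0028. The CAPS ratio stayed below 1 with its interval under 10 of 12, from 0.985 to 0.990. It was 1.003 with self-complementary flanks and 0.9993 with equal contexts. In introns the same 2 settings gave 1.004 (0.9998 to 1.009) and 0.9997, and for called cytosines self-complementary flanks gave 1.005. The CAPS ratio of longest to shortest genes was 1.028 with self-complementary flanks. The PS interval included 1 with self-complementary flanks (0.990), CpGs 500 bp apart (0.980), bodies from 5 kb (0.992), no other gene on either strand (0.990), equal contexts (0.995), means of single CpGs (0.990) and the Mantel-Haenszel estimate (0.990).

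TAPSβ calls by Fisher's exact test were 708. They were 50 with self-complementary flanks (10171 bodies tested), 5 with CpGs 500 bp apart and 159 by the Cochran-Mantel-Haenszel test. The split of 420 sense to 288 antisense calls was 22 and 28 in the first of these settings, 1 and 4 in the second and 95 and 64 in the third. The first 2 rest on few calls, and no test compared the splits. Calls were from 610 to 738 under the 8 other alternatives, but with bodies from 5 kb just 411 of the 613 were among the 708, and under the 7 others from 597 to 703 were. CAPS calls were 0, but 32 with variant-like CpGs kept, 6 with CpGs listed in CAPS alone, 3 with at least 1000 reads on each strand and 1 by the Cochran-Mantel-Haenszel test. PS calls were 1, but 60 with variant-like CpGs kept, 2 when these needed 3 modified reads, 0 with high coverage left out, 1 other body with self-complementary flanks, 2 other bodies with CpGs 500 bp apart, 3 with bodies from 5 kb and 4 by the Cochran-Mantel-Haenszel test. Spacing and equal flanks leave fewer reads per gene, and for the other settings the cause was not tested. The Mantel-Haenszel estimate, the settings for introns and flanking sequence, and self-complementary flanks for called cytosines were chosen after seeing the data. No library could be left out because each method had 1 library. The strands of a CpG form a pair, which the Mantel-Haenszel estimate and the Cochran-Mantel-Haenszel test used. The pooled ratios and Fisher's exact test did not use it.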

Other observations

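A comparison of the libraries gene by gene was not part of the design. Over 8371 bodies with at least 1000 reads on each strand in all libraries, the sense minus antisense difference of TAPSβ and that of CAPS had Pearson's r of -0.0050 and Spearman's rho of -0.013 across genes, which are not independent replicates. For CAPS and PS they were 0.030 and 0.0020, and for TAPSβ and PS 0.0068 and -0.0067. The libraries have separate reads. Over all tested bodies the log2 ratio had an SD of 0.39 in CAPS beside a counting error of 0.36. In PS these were 0.95 and 1.16. Low correlations therefore do not show that the differences are unrelated between libraries.

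With the same context on both strands, the TAPSβ ratio departed from 1 beyond counting error. Except at the self-complementary contexts, such ratios set sense cytosines beside antisense cytosines of other CpGs. They are therefore not strand ratios within CpGs. Of the 16 contexts, 11 had the higher level on the sense strand, from 0.992 (0.991 to 0.994) at CCGA to 1.012 (1.011 to 1.013) at TCGG. In CAPS, the interval lay below 1 for 2 contexts, ACGC (0.981, 0.973 to 0.989) and TCGG (0.985, 0.976 to 0.994), and above 1 for 5. These were CCGA (1.014, 1.007 to 1.022), TCGA (1.0127), TCGC (1.0125), CCGG (1.0099) and CCGC (1.0096), of which TCGA and CCGG are self-complementary. A CpG that reads TCGG on one strand reads CCGA on the other.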
